A study of Mus musculus with 6 samples.

Results

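The guanylate-binding proteins (GBPs) are a family of large GTPases encoded in the mouse by a cluster on chromosome 3 (Gbp5, Gbp7, Gbp3, Gbp2b and Gbp2) and another on chromosome 5 (Gbp8, Gbp9, Gbp4, Gbp10 and Gbp6). These 10 genes, of 54532 in the count table, were taken by gene name. The family was chosen by its female to male difference in these same libraries, so that difference is given here as a description, with no p-value for any member. RNA-seq had been done to ask how aortic endothelial cells differ between the sexes. There were 3 libraries of female cells and 3 of male cells, all labelled wild type, MAEC (mouse aortic endothelial cells) and untreated. The cells of both sexes were primary cultures from mouse aortas, grown in F-12 medium with 20% fetal bovine serum, heparin and endothelial cell growth factors. The labels give no strain, age or passage. They also leave unsaid whether each library is its own animal or culture, and a p-value then measures only the spread between these samples, and that spread may be technical.

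GBPs are among the most strongly induced products of interferon signalling. An interferon binds its receptor, JAK kinases phosphorylate STAT transcription factors, and STAT and IRF proteins bind short elements in the promoters of target genes, the interferon-stimulated response element (ISRE) and the gamma-activated site (GAS). The proteins hydrolyse GTP, assemble on the membranes of pathogens and of the vacuoles that hold them, and help expose bacterial products to caspases and inflammasome sensors. In human endothelial cells GBP1 is known as a marker of exposure to inflammatory cytokines.

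Library totals ran from 17410996 to 22993574 counts. The label could be checked against 18 endothelial genes, of which 14 stayed under 1 CPM (counts scaled to a common TMM-adjusted library total) in every library. Cdh5, Tie1, Cldn5 and Robo4 had 0 counts in all 6 libraries. Others of the list were present: Eng averaged 171.1 ± 3.89 CPM in female libraries and 198.9 ± 7.39 in male ones, Flt1 57.9 ± 4.83 and 70.2 ± 12.4, and Plvap 3.52 ± 0.39 and 112.5 ± 30.5. The summed level of 10 fibroblast genes was 11860 to 12730 CPM in female libraries and 6526 to 7126 CPM in male libraries. Most of the endothelial list, its junction genes included, thus goes against the label, and the samples are called female and male libraries below. The lowest correlation of log2 CPM between libraries of the same sex was 0.983 in female libraries and 0.966 in male libraries, and it was male replicate 3 that stood apart. As these are bulk samples, fewer cells of a type and less RNA per cell cannot be told apart.

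Because the promoter elements are how the family is known to respond to interferon, the stretch around each match in the chromosome 3 cluster is shown first. They come from RefSeq (GRCm38.p6), whose promoter windows run from 250 bases before to 50 bases after an annotated start. All 5 chromosome 3 members have such a window (6 windows, since Gbp3 has a pair). The windows used here hold none for Gbp4, Gbp6, Gbp8, Gbp9 and Gbp10. The chromosome 5 members were therefore not searched, and nothing is known here of their elements. The ISRE core was searched as GAAANNGAAA and the GAS as TTCNNNGAA, each on both strands. Capitals mark the ISRE core, which in every case reads on the minus strand and so appears as its reverse complement in these plus-strand sequences, written 5′ to 3′.

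Gbp5, chr3:142496759-142496788: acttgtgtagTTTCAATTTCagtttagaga
Gbp7, chr3:142530273-142530302: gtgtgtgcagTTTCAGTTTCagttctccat
Gbp3, chr3:142559992-142560021: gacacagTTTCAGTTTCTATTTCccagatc
Gbp2b, chr3:142594700-142594729: gtacttctaaTTTCACTTTCttctttatca
Gbp2, chr3:142620594-142620623: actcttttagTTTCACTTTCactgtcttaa

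Every chromosome 3 member held the ISRE core, against 3.44% of 32851 RefSeq promoter windows of the same length (3.99% of 27025 genes). Counted from the RefSeq start, the first base of the match lay at -165 in Gbp5, -53 in Gbp7, -137 in Gbp2b and -59 in Gbp2. Gbp3 carried a pair of overlapping matches at -45 and -39, hence its longer run of capitals, and its other window held none. Gbp2b and Gbp2, whose coding sequences are the most alike within the cluster, share the same 10 bases of the element but hold it at different distances. The GAS was found in Gbp5 (first bases at -245 and -52) and in Gbp7 (-106 and -87), and in 8.30% of all windows. No base belonged to both motifs. GENCODE M21 starts Gbp2 upstream of the RefSeq start, so that its element lies inside the gene there, and it starts Gbp5 further upstream still. A match is a description of letters in a window and not of a factor bound there, and no match says only that the letters are not in that window.

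Among the other lists of genes examined, the same core was held by 12 of 17 type I interferon targets with a window, 5 of 8 other interferon-induced GTPases, 2 of 10 targets typical of interferon gamma and 2 of 10 interferon transcription factors. Of the interferon ligands 2 of 8 held it, and of the feedback inhibitors 1 of 6. It was held by 0 of 8 interferon receptors and kinases and 0 of 9 inflammasome partners. The ATG8 conjugation genes (0 of 9) and prenylation enzymes (0 of 4) also lacked it in their windows. So did the constitutive members of the dynamin superfamily (0 of 10), the wider group of large GTPases to which GBPs belong.

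The chromosome 3 members lie on the plus strand between positions 142493978 and 142638008 (144 kb), in the order Gbp5, Gbp7, Gbp3, Gbp2b, Gbp2. Those of chromosome 5 lie on the minus strand between 105014150 and 105293698 (279.5 kb). These are the coordinates of the count table, and for all 10 members they match GENCODE M21 (GRCm38). A further pseudogene, Gbp2-ps, had 0 counts in every library, and Gbp11, annotated as a polymorphic pseudogene beyond Gbp6, had 3 counts over the female libraries and 1 over the male libraries.

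The family as a whole was more abundant in female libraries. Its 10 members summed to 72.7, 112.9 and 122.8 CPM in the 3 female libraries, against 22.2, 19.3 and 21.8 CPM in the male libraries. The lowest female library thus stood above the highest male one. The sum averaged 102.8 ± 26.5 CPM in female libraries and 21.1 ± 1.55 in male ones (SD, n = 3 each), a ratio of means of 4.87.

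Of the 10 members, 7 passed the filter on low counts and 3 (Gbp4, Gbp8 and Gbp10) did not. Gbp2b, Gbp9, Gbp6 and Gbp5 passed through their female counts alone, so the filter itself favoured a difference in them. In edgeR's quasi-likelihood fit 7 of 7 were called higher in female at an adjusted p under 0.05. Over all 14932 genes tested, 18.3% were called in either direction and 9.68% were called higher in female. The female and male values did not overlap for any of the 7, as for 35.9% of all tested genes. The family was picked on this contrast, so nothing is read from these counts. The median log2 fold change of the 7 was 3.64, and it is the same with the members at 0 in male libraries put at their lower bounds, while the median over all tested genes was -0.01.

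**Figure D1:**
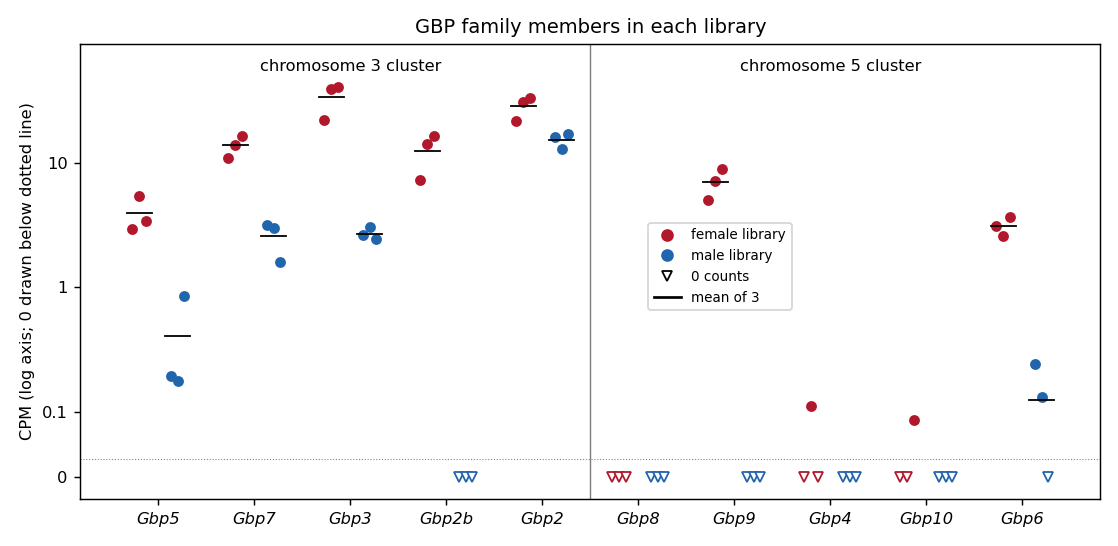
Level of each member in each library in CPM (log axis, with values of 0 drawn as open triangles below the dotted line), female libraries left of male libraries, with the mean of 3 as a bar where it exceeds 0.1 CPM. Female points lie above male points for the 7 members that passed the filter, Gbp2 has the nearest groups, and Gbp2b and Gbp9 have 0 counts in every male library.

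Gbp2 was the member with the highest male level. It codes for a protein that carries a C-terminal prenylation signal and that gathers on the vacuole of Toxoplasma in mouse cells. Its level was 21.6, 30.6 and 33.2 CPM in female libraries and 16.0, 12.98 and 16.9 CPM in male libraries. Female replicate 1 was the lowest of its sex but still above every male library. The log2 fold change was 0.90 ± 0.19 (SE derived from the F statistic), the smallest of the 7. It ran from 0.77 to 1.06 when each library was left out in turn.

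Gbp2b, known earlier as Gbp1, is the neighbour of Gbp2 and also carries a prenylation signal. The gene had 158, 250 and 381 counts in female libraries (7.21, 14.1 and 16.3 CPM) and 0 counts in each male library. Taking 3 counts over the 3 male libraries as the floor, it was at least 254-fold higher in female. The coding sequences of Gbp2b and Gbp2 were identical at 82.5% of aligned bases, and both encode 589 amino acids. No 100-base stretch of either gene's annotated transcripts recurs in another gene, so reads of that length could be assigned to one of them.

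Gbp3, which had the highest CPM of the family in female libraries, is known to be recruited to pathogen vacuoles. It stood at 21.97, 39.0 and 40.8 CPM in female libraries and at 2.61, 3.04 and 2.45 CPM in male libraries. The male values were close together and the lowest female value was far above them. Its log2 fold change was 3.64 ± 0.26, with a ratio of means of 12.6.

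Gbp7, which in mouse macrophages helps assemble the NADPH oxidase on bacterial vacuoles, had 10.9, 14.0 and 16.5 CPM in female libraries and 3.19, 3.00 and 1.59 CPM in male libraries. Male replicate 3 was the lowest. The log2 fold change was 2.39 ± 0.28. Its exons share 637 bases (11.3% of its exonic length) with the gene model Gm43802 on the same strand. The count of Gbp7 is therefore less certain than those of its neighbours.

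Gbp5, a prenylated member known to promote NLRP3 inflammasome assembly in macrophages, was the least abundant of the chromosome 3 cluster in female libraries. It had 64, 97 and 80 counts in female libraries (2.92, 5.45 and 3.42 CPM) and 4, 4 and 15 in male libraries (0.19, 0.18 and 0.85 CPM). Most of its male counts came from male replicate 3. The log2 fold change was 3.31 ± 0.57 with all libraries and 4.36 without male replicate 3.

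In the chromosome 5 cluster, Gbp9 had the most counts. It had 111, 127 and 207 counts in female libraries (5.07, 7.14 and 8.84 CPM) and 0 in each male library, at least 142-fold higher in female. Nearly all of its transcript sequence was its own: 98.4% of 100-base stretches recurred in no other gene.

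Gbp6, implicated in defence against Listeria and mycobacteria in mice, had 68, 46 and 86 counts in female libraries (3.10, 2.59 and 3.67 CPM) and 5, 3 and 0 in male libraries (0.24, 0.13 and 0 CPM). Every female library was well above every male library. The log2 fold change was 4.53 ± 0.61, and 5.30 without male replicate 1, which held 5 of the 8 male counts. The ratio of summed counts was 24.1 (95% exact binomial interval 12.0 to 56.7, which covers counting error and not the spread between libraries). Among the members with more than 3 counts, that of Gbp6 is the least certain. Only 35.5% of its 100-base stretches recurred in no other gene, and its exons share 1726 bases with Gm43302, a protein-coding gene model that spans Gbp6 and Gbp10 and had 0 counts in every library.

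The remaining chromosome 5 members were at or under the floor of 3 counts per sex, so no fold is given. Gbp4, reported in mouse to restrain IRF7, had 2 counts in female replicate 2 and 0 in the other libraries. Gbp10, also implicated in defence against mycobacteria, had 2 counts in female replicate 3 and 0 elsewhere. Gbp8 had 0 counts in all 6 libraries. A summed count of 0 over 3 libraries allows up to 0.048 CPM in female libraries and 0.049 in male ones. Gbp4, Gbp8 and Gbp9 share 60 to 61 bases of exon at their 5′ ends on the same strand, and no more, so the count of Gbp9 rests almost wholly on bases that the others lack. For Gbp10 the limit is weaker, since 46.3% of its exonic length lies in Gm43302 and only 26.5% of its 100-base stretches were its own.

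The coding sequences show how the clusters differ. Within chromosome 5 they were identical at 88.9 to 98.4% of aligned bases (median 90.5% over 10 pairs), with Gbp6 and Gbp10 the closest pair. Within chromosome 3 the range was 56.5 to 82.5% (median 59.4%). Between clusters it was 56.3 to 74.5% (median 59.7%), where Gbp3 and Gbp7 were the members of chromosome 3 nearest to chromosome 5. Gbp3 and Gbp7 were 77.9% identical to each other. Thus pairs of near alike sequence included members with very different counts: Gbp6 with 200 female counts and Gbp10 with 2, or Gbp9 with 445 and Gbp4 with 2. The counts of Gbp6 and Gbp10 are the less certain. Only 35.5% of the 100-base stretches of Gbp6 and 26.5% of those of Gbp10 were their own, and reads of the rest may have been lost.

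**Figure D2:**
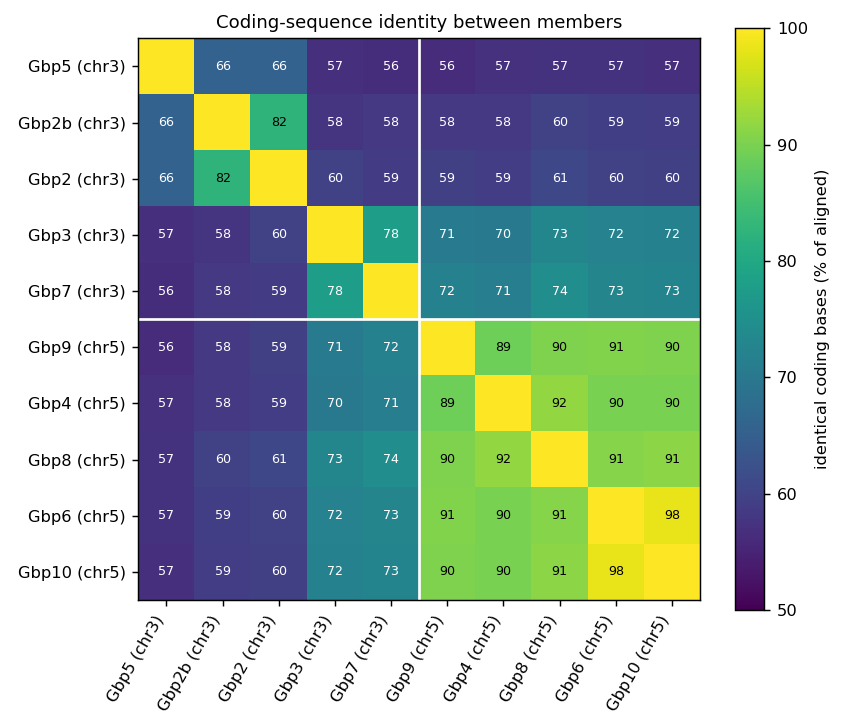
Identical bases as a percentage of aligned coding bases for each pair of members, with white lines between chromosome 3 and chromosome 5 genes. The chromosome 5 block is the most alike (88.9 to 98.4%), Gbp3 and Gbp7 are the chromosome 3 genes closest to it, and Gbp5, Gbp2b and Gbp2 form a separate group.

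Set side by side, the clusters differed in level and in female to male ratio. The chromosome 3 cluster summed to 64.6, 103.1 and 110.2 CPM in female libraries, against 21.96, 19.2 and 21.8 CPM in male libraries. Its ratio of means was 4.42, or 2.14 on the log2 scale. The chromosome 5 cluster summed to 8.17, 9.84 and 12.6 CPM in female libraries, against 0.24, 0.13 and 0 CPM in male libraries. Its ratio of means was 81.8, or 6.35 on the log2 scale.

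The log2 ratio of chromosome 5 exceeded that of chromosome 3 by 4.21. The chromosome 5 value rests on 8 male counts, all of Gbp6. It was 7.27 without male replicate 1 and 5.77 without male replicate 3, which moved the difference between the clusters to 5.09 and 3.60. The chromosome 3 value rests on Gbp2: the 4 other members of that cluster summed to 64.1 ± 18.5 CPM in female libraries and 5.71 ± 0.71 in male ones, a ratio of 11.2 (3.49 on the log2 scale). Single members ranged from 0.90 in Gbp2 to a bound of 7.99 in Gbp2b within chromosome 3, against 4.53 in Gbp6 and a bound of 7.15 in Gbp9 within chromosome 5. The difference between the clusters was not tested, since the family was picked on the same contrast.

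**Figure D3:**
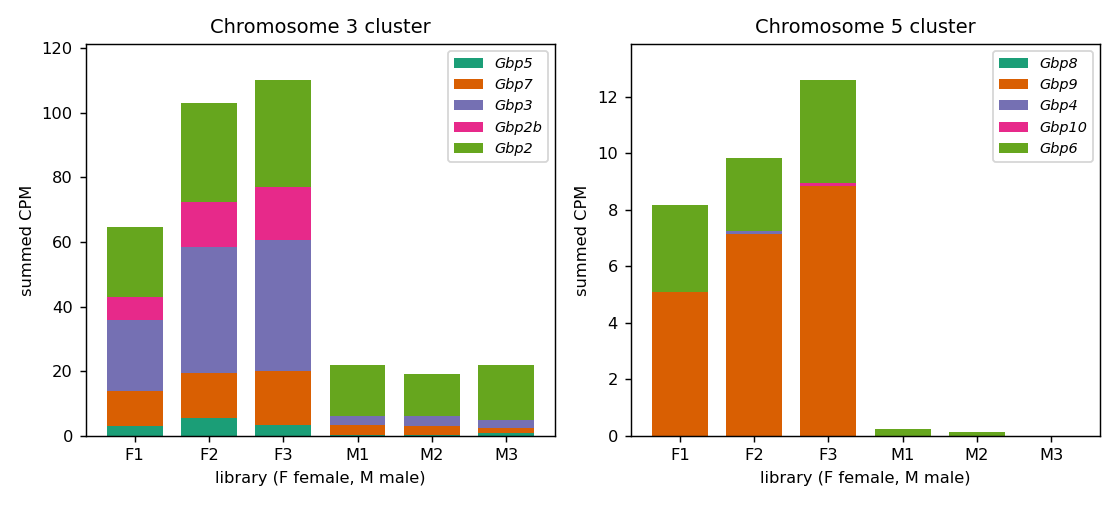
Summed CPM of each cluster in every library (F1 to F3 female, M1 to M3 male), stacked by member, with chromosome 3 at left and chromosome 5 at right on its own, smaller scale. Gbp2 and Gbp3 fill most of the female bars of chromosome 3 and Gbp2 most of the male bars, while the chromosome 5 bars are Gbp9 and Gbp6 in female libraries and a trace of Gbp6 in male libraries.

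The make-up of the family's counts differed as well. Gbp2 supplied 28.0 ± 1.503% of them in female libraries and 72.2 ± 5.22% in male libraries (SD, n = 3 each). Gbp3 supplied 32.6 ± 2.21% in female and 12.9 ± 2.47% in male libraries. The chromosome 5 cluster supplied 10.1 ± 1.27% in female and 0.59 ± 0.55% in male libraries. Gbp7 made up a like share in both, at 13.6 ± 1.279% in female and 12.4 ± 4.45% in male libraries. The shares of Gbp2b, at 11.9 ± 1.74%, and of Gbp9, at 6.83 ± 0.45%, belonged to the female libraries, since both genes were at 0 in the male libraries.

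Levels can be compared between genes only per length, as RPKM (CPM per kilobase of the gene length in the table). On that scale Gbp2 led in female libraries with 11.3 ± 2.43 RPKM, followed by Gbp3 with 10.4 ± 3.18. The ranges of these neighbours overlapped between libraries, while within each of the 3 female libraries Gbp2 was above Gbp3. Gbp2b (4.43 ± 1.67 RPKM) and Gbp7 (2.46 ± 0.50 RPKM) overlapped in range too, with Gbp2b above Gbp7 in each of the 3 libraries, and both were below Gbp3 and above Gbp9 (1.36 ± 0.37 RPKM). Gbp5 (0.59 ± 0.20 RPKM) and Gbp6 (0.52 ± 0.09 RPKM) came last and overlapped, with Gbp5 above Gbp6 in 1 of 3 libraries. Counted on the exonic bases that no other gene shares, a length chosen after the data were seen, Gbp6 had 0.74 ± 0.13 RPKM and passed Gbp5.

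In male libraries the order per length was Gbp2 (6.07 ± 0.81 RPKM), Gbp3 (0.83 ± 0.09), Gbp7 (0.46 ± 0.16), Gbp5 (0.061 ± 0.058) and Gbp6 (0.021 ± 0.020), with the rest at 0. Only Gbp5 and Gbp6 overlapped among neighbours in that order. Gbp2 was therefore close to Gbp3 in female libraries but far above it in male libraries.

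Most members ranked the female libraries alike. Female replicate 1 was the lowest in 6 of the 7 members and female replicate 3 the highest in 6 of 7. Over all tested genes, female replicate 1 was lowest in 34.2% and female replicate 3 highest in 34.3%. The same libraries were lowest in 34 and highest in 32 of the 41 interferon system genes called higher in female. What sets the female libraries apart from each other was not tested.

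Genes of the interferon system were taken from 7 lists that hold 89 genes other than GBPs. Some lists hold genes that act upstream of GBPs, and the others hold further genes that interferon induces. Of these, 71 were tested, and 41 rose in female libraries, 1 fell and 29 did not pass. Their median log2 fold change was 1.40, against -0.01 over all tested genes. Over all tested genes, 18.3% were called in either direction and 9.68% were called higher in female. Of the 41 that rose, 12 passed the filter on low counts through their female libraries alone. The 1 that fell passed it through its male libraries alone. The filter itself favoured a difference in all of these, so nothing is read from their calls. These lists were drawn up with earlier results on the same libraries known, so they are no independent evidence of a direction.

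Among the ligands, 7 of 8 interferon genes (Ifnb1, Ifng and Ifna4 among them) had 0 counts in all 6 libraries. The exception, Ifne, had 7 counts over the female and 2 over the male libraries. None passed the filter on low counts.

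Of 9 receptor and kinase genes, 1 rose, 1 fell and 7 did not pass, with a median log2 fold change of -0.22. Ifngr1, a chain of the interferon gamma receptor, had 111.2 ± 4.24 CPM in female libraries and 114.8 ± 11.1 in male ones (SD, n = 3 each; log2 fold change -0.04 ± 0.11, edgeR adjusted p = 0.827). Its partner chain Ifngr2 rose (0.39 ± 0.10, edgeR adjusted p = 0.0258), a call lost in 5 of the 6 fits that left out a library. Ifnar1, a chain of the type I interferon receptor, had 138.6 ± 1.15 CPM in female libraries and 146.8 ± 15.01 in male ones (-0.08 ± 0.11, edgeR adjusted p = 0.675). Ifnlr1, the receptor chain for interferon lambda, fell, on 4 counts over the female and 49 over the male libraries (-3.53 ± 0.93, edgeR adjusted p = 0.026), and 4 of the 6 such fits lost that call. DESeq2 and the fit without male replicate 3 each called 3 of the list lower, and limma-voom 5.

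Of 11 transcription factors tested, 4 rose and 7 did not pass, with a median of 0.00. Stat2, a transcription factor that type I interferon activates, rose (1.46 ± 0.13 in log2, edgeR adjusted p = 3.29e-05). Irf9, which brings Stat2 to the ISRE, rose by a like amount (1.41 ± 0.14, edgeR adjusted p = 8.26e-05). Irf7 amplifies the interferon response. It stood at 36.4 ± 6.002 CPM in female libraries and 3.47 ± 0.83 in male ones (3.39 ± 0.22, edgeR adjusted p = 5.66e-06). Without male replicate 3, 4 were called higher and 2 lower, and limma-voom called 4 in each direction. Irf1, the factor through which interferon gamma induces many GBP genes, was named for that role; its log2 fold change was -0.18 ± 0.15 (edgeR adjusted p = 0.454). Among 7 feedback inhibitors tested, 2 rose and 5 did not pass: Usp18, which removes ISG15 and dampens the type I receptor (4.68 ± 0.31, edgeR adjusted p = 7.38e-06), and Socs3 (0.52 ± 0.12, edgeR adjusted p = 0.0148), whose call was lost in 3 of 6 fits that left out a library. Between 1 and 3 of this list were called with a library left out, the most without male replicate 3.

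All 9 tested genes of the 12 other interferon-induced GTPases rose, with a median of 2.57. Among them Tgtp2, Gvin1 and Mx2 passed the filter through their female libraries alone. The smallest p-values were those of Iigp1 (4.45 ± 0.22, edgeR adjusted p = 1.2e-06) and Irgm2 (2.03 ± 0.14, edgeR adjusted p = 6.73e-06), immunity-related GTPases that act with GBPs on pathogen vacuoles. Ifi44 (4.53 ± 0.34, edgeR adjusted p = 1.36e-05) and the antiviral dynamin-like GTPase Mx2 (6.11 ± 0.49, edgeR adjusted p = 2.1e-05, on 4 male counts, past the filter through its female libraries alone) also rose. Leaving out each library in turn left 8 or 9 of them called.

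The 22 type I interferon targets were all tested and 22 rose, against 9.68% of all tested genes. Their median was 2.65, and 19 to 22 were called with a library left out. Ifit3b, Rsad2, Oas1a, Oas3, Oasl1 and Cmpk2 passed the filter through their female libraries alone. Oasl2, an OAS-like antiviral protein, had 57.9 ± 15.4 CPM in female libraries and 4.10 ± 0.52 in male ones (3.82 ± 0.23, edgeR adjusted p = 3.52e-06). Isg15, a ubiquitin-like modifier, rose by 4.43 ± 0.28 (edgeR adjusted p = 4.96e-06). Rtp4 (3.62 ± 0.24, edgeR adjusted p = 6.3e-06) and Xaf1 (3.20 ± 0.22, edgeR adjusted p = 8.19e-06) had like values.

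Of 13 tested targets typical of interferon gamma, 3 rose and 10 did not pass, with a median of 0.33. Nlrc5, a regulator of MHC class I genes, rose (3.37 ± 0.41, edgeR adjusted p = 0.00031), as did the chemokine Cxcl10 (5.91 ± 0.76, edgeR adjusted p = 0.00045) and Cd274, which encodes PD-L1 (2.17 ± 0.39, edgeR adjusted p = 0.00344). All of these passed the filter through their female libraries alone. Cxcl9 and Cxcl11 had 0 counts in all 6 libraries. Between 3 and 7 genes of this list were called with a library left out, the most without male replicate 3. With limma-voom, 8 were called higher and 1 lower. GBPs respond to both kinds of interferon, and the difference between these lists was not tested.

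**Figure D4:**
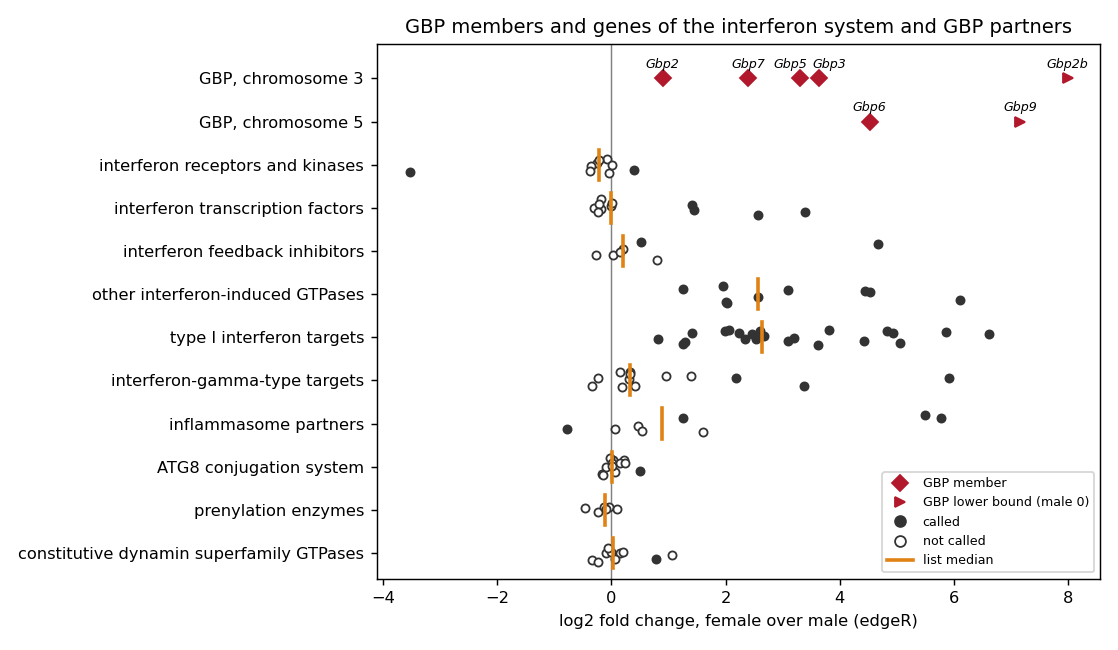
Log2 fold change, female over male (edgeR), of the GBP members that passed the filter (red diamonds, or arrowheads at the lower bound where male libraries had 0 counts) and of the tested genes of each list (filled where called at an adjusted p under 0.05, open where not), with list medians in orange. The points of type I interferon targets (median 2.65) and other interferon-induced GTPases (median 2.57) lie wholly right of 0, while ATG8 conjugation, prenylation and constitutive dynamin-like genes cluster around 0.

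Genes that work with GBP proteins were taken as groups. For scale, 18.3% of all tested genes were called in either direction and 9.68% were called higher in female. Of 8 tested inflammasome partners, 3 rose, 1 fell and 4 did not pass, with a median of 0.89. Casp1, the caspase that inflammasomes activate, had 53.1, 58.3 and 63.3 CPM in female libraries and 1.26, 1.501 and 1.08 CPM in male libraries (5.49 ± 0.17, edgeR adjusted p = 1.85e-07). Casp4, the mouse caspase-11 that senses lipopolysaccharide on GBP-coated bacteria, had 197.1 ± 16.3 CPM in female libraries and 82.5 ± 5.84 in male ones (1.26 ± 0.11, edgeR adjusted p = 3.9e-05). Aim2, a DNA sensor reached through GBPs in mouse macrophages, rose (edgeR adjusted p = 0.000659), and passed the filter through its female libraries alone. It had 190 counts over the female and 3 over the male libraries (ratio 61.1, 95% exact binomial interval 20.6 to 299.1, for counting error alone). Ninj1, which ruptures the membrane of dying cells, fell (-0.77 ± 0.15, edgeR adjusted p = 0.00454). Nlrp3, the sensor that Gbp5 promotes, had 17 counts over the female and 8 over the male libraries and was not tested.

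The ATG8 conjugation system delivers GBPs to vacuoles in mouse cells. Of its 12 genes 1 rose, Atg7 (0.49 ± 0.11, edgeR adjusted p = 0.0131, lost in 3 of 6 fits without a library), and 11 did not pass, with a median of 0.02. Without male replicate 3, 5 were called higher, and limma-voom called 4. The 6 prenylation enzymes, which attach the lipid by which some GBPs reach membranes, gave 0 calls with edgeR's filter and no block. Of them 1 had an unadjusted p under 0.05. DESeq2, limma-voom, and edgeR without the filter or with the replicate number as a block each called 1 lower, Fntb, which had 21.2 ± 2.02 CPM in female libraries and 29.1 ± 5.34 in male ones (-0.45 ± 0.16, edgeR adjusted p = 0.0824). Of 10 constitutive dynamin superfamily genes 1 rose, Atl1 (0.78 ± 0.17, edgeR adjusted p = 0.00958, lost without female replicate 2), and 9 did not pass, with a median of 0.03. Beside the 18.3% of all tested genes called in either direction, nothing is read from the few calls of these lists.

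Next to the clusters, calls went in both directions. The shares over all tested genes were 18.3% called in either direction and 9.68% called higher in female. With so few genes tested, nothing about the loci is read from their calls. Within 500 kb of the outermost members lay 10 protein-coding genes other than GBPs, of which 8 were tested, 1 rose, 1 fell and 6 did not pass. Lrrc8b, a subunit of volume-regulated anion channels on chromosome 5, had 28.5 ± 1.51 CPM in female libraries and 8.51 ± 2.93 in male ones (1.74 ± 0.23, edgeR adjusted p = 0.000582). The zinc finger gene Zfp951, also on chromosome 5, had 2.26 ± 0.52 CPM in female libraries and 6.28 ± 0.44 in male ones (-1.48 ± 0.24, edgeR adjusted p = 0.00179). Beside the chromosome 3 cluster, Pdlim5 (-0.20), Kyat3 (0.60), Gtf2b (0.41) and Pkn2 (-0.11) did not pass, nor did Lrrc8c (-0.25) and Lrrc8d (0.49) on chromosome 5. Without male replicate 3, 2 neighbours were called higher and 4 lower, and limma-voom called 4 in each direction. Abcg3 and Gm43302 had 0 counts in every library.

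The genes whose pattern over the 6 libraries was most like that of the family were found by the root mean square distance between mean-centred log2 CPM profiles and the mean profile of the 7 members. Among 14925 other tested genes the nearest was Oasl2 (distance 0.098), and Mndal (0.21), Atp6v0d2 (0.26), H19 (0.26) and Prss12 (0.26) were also among the nearest. The members themselves lay between 0.21 (Gbp3) and 1.54 (Gbp2b) from their mean, so these genes were about as near to it as the nearest member or nearer. Each of these genes was called higher in female. Across 6 libraries the measure is governed largely by the size of the female to male difference, so it gives no view of other conditions.

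Macrophages and other leukocytes also express GBPs, so their markers are given beside the members. Of 14 such markers, 10 stayed under 1 CPM in every library, and Ptprc, Itgam, Fcgr1, Cd3e, Ncr1 and C1qa had 0 counts in all 6. Their summed level was 29.4 to 38.4 CPM in female libraries and 12.7 to 19.0 in male ones. Of the 4 tested, 2 rose, Cd14 (1.22 ± 0.18, edgeR adjusted p = 0.00128) and Lyz2 (1.29 ± 0.28, edgeR adjusted p = 0.00948). Csf1r, the receptor for the macrophage growth factor, had 22 counts over the female and 53 over the male libraries (-1.35 ± 0.60, edgeR adjusted p = 0.169), and limma-voom called it lower. Endothelial markers summed to 229.3 to 245.3 CPM in female libraries and 362.3 to 414.1 in male ones, a difference carried mostly by Plvap. Of the 18, 5 were tested, 1 fell (Plvap, -5.00 ± 0.23, edgeR adjusted p = 9.07e-07) and 4 did not pass, while limma-voom called 4 lower. Of 10 fibroblast markers 6 rose, 1 fell and 3 did not pass, with 5 or 6 rising when a library was left out. Mesothelial markers, 8 in number, summed to 7.48 to 11.2 CPM in female libraries and 2.13 to 4.04 in male ones. Of the 2 tested 1 rose, Krt18, which passed the filter through its female libraries alone. Krt18 made up most of the female sum but not of the male one (7.501 ± 1.40 CPM in female libraries and 0.50 ± 0.25 in male ones). Msln had 0 counts over the female and 17 over the male libraries, and Upk3b 0 and 18. Smooth muscle markers, 7 in all, summed to 118.5 to 120.5 CPM in female libraries and 141.9 to 176.4 in male ones, and of the 4 tested 1 fell and 3 did not pass. The share of all tested genes called was 18.3% in either direction and 9.68% higher in female. The part of cell make-up in the levels of the GBPs was not tested.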

How the data were processed

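The authors deposited 1 table of raw read counts, as whole numbers per gene and library. HISAT2 2.0.5 and featureCounts 1.5 were used, per the submitters' processing notes. For the build and strand setting, the sources used here give nothing. Of the gene identifiers, 99.8% were found in GENCODE M21 and 98.3% of those had the same coordinates there. Reads of overlapping or near-identical genes may have been split or lost.

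Members, gene lists and tests were chosen with earlier results of these data known. The tests used edgeR 4.0.16 (R 4.3.3; quasi-likelihood F test, TMM factors 0.969 to 1.02, filterByExpr with a minimum count of 10), with Benjamini-Hochberg adjustment over 14932 genes and a threshold of 0.05. Log2 folds are female over male. The SE given with an edgeR log2 fold is its absolute value divided by the square root of its F statistic. A gene at 0 counts in the male libraries has as its fold a bound against 3 counts over those 3 libraries. Per library, 0 counts allow 0.130 to 0.172 CPM. Counting error is all that floors and intervals cover. Libraries of a sex differed by more than sampling noise (chi-square per degree of freedom 7.82 to 78.4).

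Named genes were all members, other genes named Gbp, up to 4 genes of each list with the smallest p, genes of defining role (ligands and receptors), the cluster neighbours and 6 genes of like profile. Of the genes under this rule, 2 are left out of the text. Irf1, Nlrp3, Fntb, Cxcl9 and Cxcl11 and the markers named were chosen after their values were seen, as were genes named only for how they passed the filter. Profiles used log2 CPM with a prior count of 2. Coding sequences from GENCODE M21 were aligned with MAFFT 7.526. Settings changed were the scaling (RLE, upper quartile), the tool (DESeq2 1.42.0; limma-voom with quality weights, limma 3.58.1), the filter (none, or a mean of 50 counts or more), a block on replicate number, the leaving out of each library, and a threshold of 0.01. A length of exonic bases of no other gene was added after the data were seen.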

Additional observations from a re-analysis of the deposited data

How the results depend on the processing

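GBP members called higher in female numbered 7 under each alternative run but the filter at a mean of at least 50 counts, which tested and called 5. For a family picked on this contrast, that is no sign of stability. Their median log2 fold change was 3.64, 4.25 with limma-voom, and 3.48 to 4.04 with each library left out, the highest without male replicate 3. Over all genes 2733 were called, against 6593 with limma-voom, 1735 at an adjusted p under 0.01, and 1870 to 5051 with each library left out, the highest when male replicate 3 was the library left out. The cause of these shifts was not tested. Interferon system genes called numbered 42, and 35 to 58 over the alternatives. With each library left out, the log2 ratio of the chromosome 3 sum ran from 1.99 to 2.34, that of chromosome 5 from 5.77 to 7.27, and their difference from 3.60 to 5.09.

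Replicate numbers are shared by the sexes, but deviations of same-numbered libraries correlated at 0.206, -0.00405 and 0.152, and female replicate 2 was nearest to male replicate 3, so the numbers were not taken as pairs. With the replicate number as a block, 3068 genes, 7 members and 42 interferon system genes were called, and the members' median was 3.60. Depth limits Gbp4, Gbp8, Gbp10 and the male levels of Gbp2b, Gbp9, Gbp6 and Gbp5, which rest on 0 to 23 counts over 3 libraries.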
